A study of Mus musculus with 8 samples.

Results

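Fibro-adipogenic progenitors (FAPs) are stromal cells that lie between the fibres of skeletal muscle and carry PDGFRα, and the cells described here are those that carried transcripts of Mme, Hsd11b1 and Smoc2 together. They were found among sorted PDGFRα-positive cells of 2 groups of mice. The first group was the dysferlin knockout (KO), which lacks a protein that muscle fibres use to reseal their membrane; its strain is labelled BLA/J, and the growth protocol writes B6A/J. The second was wild type (WT) C57BL/6. Both groups were female and 8 months old, with 4 labelled samples each. Collagenase and dispase released the cells from hindlimb muscle, the sort took live singlets positive for PDGFRα, and transcripts were counted as unique molecular identifiers (UMIs) with a droplet kit. The sort removed other cells of the muscle, so the data say nothing of how many FAPs a muscle held. Each group's 4 samples were in 1 matrix, and no barcode could be assigned to a mouse. There was therefore 1 library per group, no replicate spread and no test of a difference, and the genotype cannot be told apart from strain or from the preparation of the library.

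A barcode was counted as a member when it had at least 500 genes, at most 10% mitochondrial UMIs and at least 1 Pdgfra UMI, at least 1 UMI of each of Mme, Hsd11b1 and Smoc2, and no UMI of Dpp4, Gdf10 or Cxcl9. In all 406 of the 3797 deposited barcodes were members, 165 of 1724 in KO and 241 of 2073 in WT. The same filter without the 6 genes of the rule passed 1435 KO and 1533 WT barcodes, which left 1270 KO and 1292 WT barcodes to set the members against. The members were selected on their own counts, so every difference between them and the other barcodes is a description.

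FAPs lie between muscle fibres, make the collagens and proteoglycans of the interstitium, and send the growth and niche signals on which muscle stem cells depend. In mouse muscle they range from Dpp4- and Pi16-expressing cells, often described as progenitor-like and found in many tissues, to interstitial cells nearer the fibres. Mme encodes neprilysin, a membrane peptidase that cuts small peptides such as enkephalins and natriuretic peptides. Hsd11b1 encodes the enzyme of the endoplasmic reticulum that turns inactive glucocorticoid back into its active form, using NADPH supplied by the product of H6pd. Smoc2 encodes a secreted calcium-binding protein of the SPARC family. Dpp4 is a second membrane peptidase, Gdf10 a ligand of the TGF-β superfamily, and Cxcl9 a chemokine induced by interferon gamma.

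The promoter windows of 4 genes are printed here because 2 of the genes define the members, and the other 2 stand for lists that differed in opposite directions between KO and WT members, interferon-induced and glucocorticoid-induced genes. They are RefSeq sequences of build GRCm38.p6, each covering 250 bases before to 50 bases after an annotated start, written 5′ to 3′ on the gene's strand. Capitals mark CCAAT on either strand in the first and second, overlapping copies of the interferon-response letters GAAANNGAAA in the third, and the glucocorticoid-response letters GNACANNNTGTNC in the fourth. In the GENCODE annotation of the same build Hsd11b1 lies at chr1:193221634-193264075 on the minus strand, Mme at chr3:63241537-63386030 on the plus strand and Smoc2 at chr17:14279506-14404790 on the plus strand. The window of Hsd11b1 is chr1:193242311-193242610 on the minus strand. That of Mme is chr3:63295622-63295921 on the plus strand, 1 of 3 windows RefSeq gives for this gene. The window of Isg15, an interferon-induced ubiquitin-like protein, is chr4:156200769-156201068 on the minus strand. That of Sgk1, a kinase induced by glucocorticoid, is chr10:21993640-21993939 on the plus strand, and is 1 of 6 windows of the gene and the only one holding the letters.
Hsd11b1: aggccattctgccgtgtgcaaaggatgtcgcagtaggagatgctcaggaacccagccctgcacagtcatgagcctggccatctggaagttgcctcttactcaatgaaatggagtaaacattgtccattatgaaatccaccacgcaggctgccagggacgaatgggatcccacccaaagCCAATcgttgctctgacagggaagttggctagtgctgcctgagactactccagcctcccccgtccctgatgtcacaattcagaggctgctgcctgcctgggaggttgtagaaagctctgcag
Mme: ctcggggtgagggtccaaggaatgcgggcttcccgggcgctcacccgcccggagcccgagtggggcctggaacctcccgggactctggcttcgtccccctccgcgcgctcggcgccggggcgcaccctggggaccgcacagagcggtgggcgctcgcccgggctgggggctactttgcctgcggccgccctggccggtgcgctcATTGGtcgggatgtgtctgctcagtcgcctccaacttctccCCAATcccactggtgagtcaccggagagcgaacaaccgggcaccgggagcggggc
Isg15: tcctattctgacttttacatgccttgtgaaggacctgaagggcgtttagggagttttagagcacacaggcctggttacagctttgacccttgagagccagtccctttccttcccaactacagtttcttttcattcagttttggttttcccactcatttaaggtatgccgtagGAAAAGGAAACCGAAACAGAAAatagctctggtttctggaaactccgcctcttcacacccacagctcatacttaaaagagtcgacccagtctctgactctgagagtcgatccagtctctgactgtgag
Sgk1: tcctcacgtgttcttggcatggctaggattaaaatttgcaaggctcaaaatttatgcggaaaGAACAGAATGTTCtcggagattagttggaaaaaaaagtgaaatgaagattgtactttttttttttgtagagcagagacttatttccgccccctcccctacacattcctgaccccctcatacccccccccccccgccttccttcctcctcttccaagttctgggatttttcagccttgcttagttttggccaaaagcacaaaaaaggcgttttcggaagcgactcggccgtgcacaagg

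CCAAT stood in the windows of 41.1% of all 27025 genes of the table, so its presence in both defining genes is common. The interferon-response letters stood in 3.99% of all genes and the glucocorticoid-response letters in 0.537%. The letters TTGCNNAA, bound by C/EBP factors, and TGANTCA, bound by AP-1, were also searched on both strands and stood in 12.2% and 8.97% of all genes; among the 54 genes higher in members that had a window, 16.7% held each of them. Among the 50 such genes lower in members 24% held the C/EBP letters and 14% the AP-1 letters, so the C/EBP letters were no more frequent in the higher genes than in the lower ones. A match describes letters and not a used site.

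The 3 required genes differed widely in level. Smoc2 was abundant, with a median of 37.6 UMIs per 10000 UMIs of a barcode in KO members (quartiles 22.9 and 57.7) and 39.9 in WT members (25.4 and 63.5), against 14.3 in other KO barcodes and 11.3 in other WT barcodes. Mme was sparse. Its median was 2.33 per 10000 in KO members (1.39 and 3.97) and 2.40 in WT members (1.46 and 4.92), against 0.53 in other KO barcodes and 0 in other WT barcodes. Hsd11b1 had a median of 2.49 in KO members (1.25 and 4.71) and 3.51 in WT members (2.03 and 6.02), and 0 in the other barcodes of both libraries. In raw counts a KO member had a median of 2 UMIs of Mme, 3 of Hsd11b1 and 41 of Smoc2, and a WT member 2, 3 and 35. The rule thus turned on 1 or 2 molecules of Mme and Hsd11b1 and hardly on Smoc2: dropping the Smoc2 requirement gave the same 165 and 241 barcodes.

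**Figure D1:**
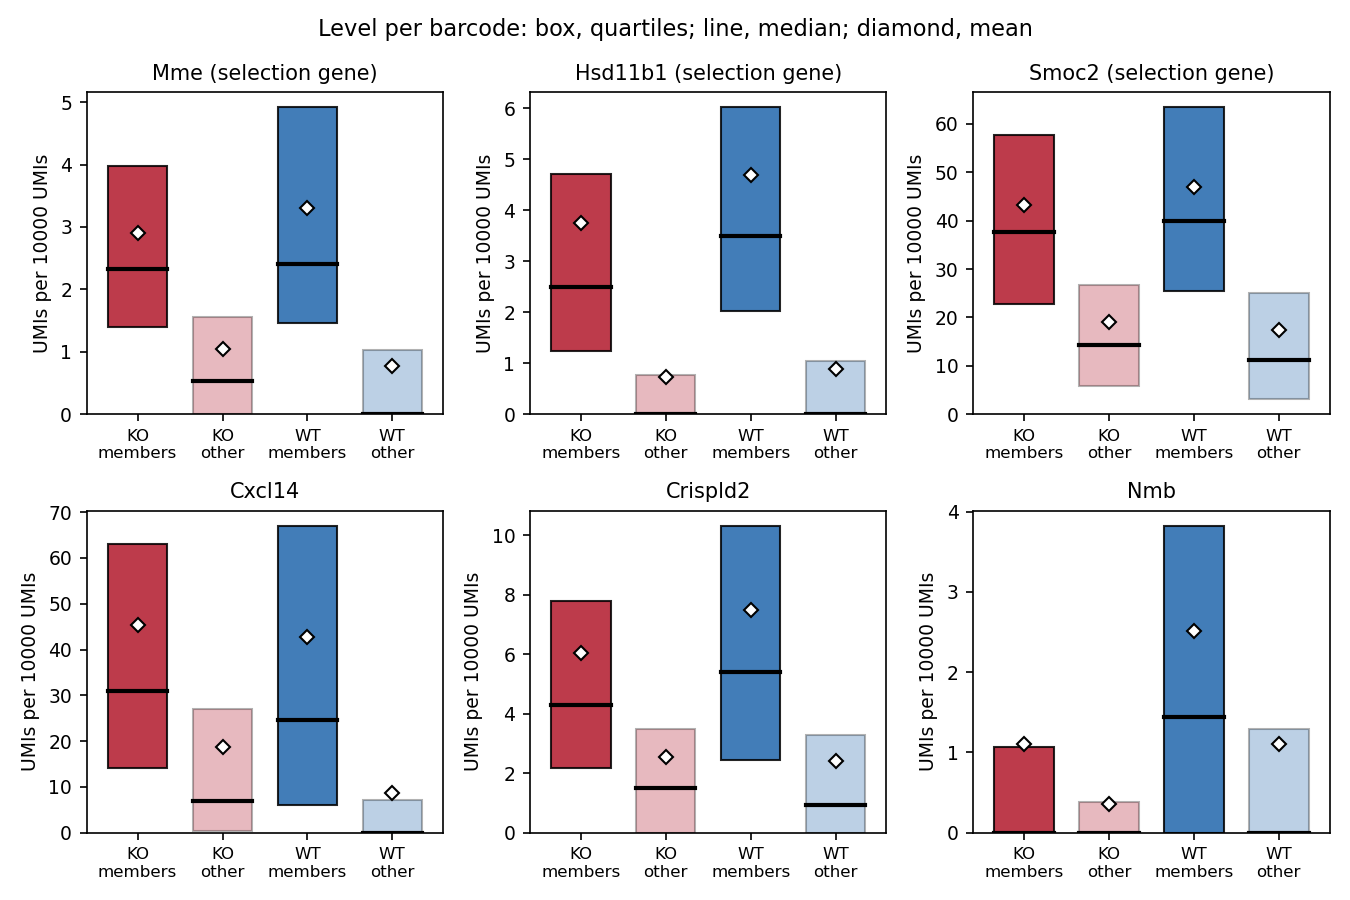
UMIs per 10000 UMIs of a barcode for the 3 required genes and for Cxcl14, Crispld2 and Nmb, in members and other barcodes of the KO and WT libraries; boxes span the quartiles, lines are medians and diamonds means. Smoc2 and Cxcl14 sit at medians of 37.6 and 30.9 in KO members and 39.9 and 24.7 in WT members, while the members' medians of Mme and Hsd11b1 run from 2.33 to 3.51.

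Since the members' Mme, Hsd11b1 and Smoc2 values were fixed by the rule, their summed levels are given once, in counts per 1000000 UMIs (CPM). Mme stood at 248 CPM in KO members and 106 in other KO barcodes, and at 295 in WT members and 72.2 in other WT barcodes. Hsd11b1 stood at 330 against 74.8 CPM in KO and at 445 against 89.1 CPM in WT. Smoc2 stood at 3865 against 1861 CPM in KO and at 4401 against 1670 CPM in WT. Pdgfra, required of every barcode, was close in all 4 sets, at 555 CPM in KO members, 482 in other KO barcodes, 523 in WT members and 488 in other WT barcodes.

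Many members lay at the edge of the rule. In 88 of 165 KO members and 109 of 241 WT members the scarcest of the 3 required genes had 1 UMI, and in 52 KO and 77 WT members it had 3 or more. Just outside, 37 KO and 99 WT barcodes lacked only Mme, 129 KO and 117 WT barcodes lacked only Hsd11b1, and no barcode of either library lacked only Smoc2. Dpp4 alone kept out 99 KO and 117 WT barcodes, of which 53 KO and 56 WT had a single Dpp4 UMI. Gdf10 alone kept out 22 KO and 31 WT barcodes. Cxcl9 alone kept out 80 KO barcodes and 7 WT barcodes.

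Genes not used by the rule were graded across this edge in WT, or nearly so, and less regularly in KO, in the 4 examples given here. Cxcl14, which encodes a secreted chemokine, stood at 5012 CPM in KO members with 3 or more UMIs of each required gene, 5741 CPM in those whose scarcest had 2 and 3809 CPM in those at the edge, against 3361 CPM in KO barcodes that lacked only Mme and 2121 CPM in those that lacked only Hsd11b1. In WT the values fell in that order, at 4482, 4165, 3692, 2237 and 1024 CPM. Lifr, the receptor of leukaemia inhibitory factor, stood at 315, 274, 197, 106 and 107 CPM in KO and at 286, 265, 195, 165 and 93.2 CPM in WT. Adamtsl2, a matrix gene described further on, had no such order in KO, at 61.5, 34.2, 71.5, 75.9 and 14.4 CPM. Nor did Trf, the transferrin gene, at 77.2, 164, 37.8, 146 and 27.4 CPM in KO. In WT, however, Trf fell in that order, at 201, 157, 129, 70.3 and 44.2 CPM. Adamtsl2 nearly did so in WT, at 128, 80.2, 87.05, 71.5 and 29.4 CPM. Barcodes that lacked only Mme thus reached the level of members for both of these genes in KO. KO barcodes kept out only by Cxcl9 had 4022 CPM of Cxcl14 and 233 CPM of Lifr, within the range of the KO members by UMI count. The 7 such WT barcodes had 6708 CPM of Cxcl14, above the WT members, and 170 CPM of Lifr, below them.

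Members made up 11.5% of the KO barcodes that passed the filter (95% exact Clopper-Pearson interval 9.89 to 13.3%) and 15.7% of the WT barcodes (13.9 to 17.6%). These intervals, and all others given here, cover counting error alone and not the spread between mice. The order of the libraries changed with the conditions and the depth. Without the Cxcl9 condition the share was 17.1% in KO (15.2 to 19.1%) and 16.2% in WT (14.4 to 18.1%), and with none of the 3 conditions 30.7% in KO and 26.9% in WT. KO barcodes were deeper, however, with a median of 12717 UMIs against 9177 in WT. In barcodes thinned to 5000 UMIs, the 3 required genes were found together, with no condition on the excluded genes, in 14.2% of KO barcodes (179 of 1263) and 17.5% of WT barcodes (216 of 1234). WT was the higher there, as it was under the whole rule at that depth, though these intervals overlap (12.3 to 16.2% in KO and 15.4 to 19.7% in WT). Cxcl9 was detected in 23.8% of KO barcodes and 1.44% of WT barcodes. When every barcode was thinned to 5000 UMIs and the rule applied again, the share was 9.75% in KO (108 of 1108) and 14.3% in WT (155 of 1086). Those bases asked for Pdgfra again after thinning. On the bases of the 3-gene share, which did not, it was 9.03% in KO (114 of 1263) and 13.5% in WT (166 of 1234).

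Mme and Hsd11b1 occurred together in the same barcodes. Among KO barcodes with Mme, 51.6% also had Hsd11b1, against 22.8% of KO barcodes without Mme. In WT the shares were 59.7% against 28.0%. After thinning to 5000 UMIs they were 37.3% against 20.5% in KO and 54.1% against 26.1% in WT, so the difference was present at matched depth too. Free RNA was gauged in endothelial barcodes without Pdgfra, of which WT held 25, with a median of 4852 UMIs: 4% had Mme, 4% Hsd11b1 and 8% Smoc2. KO held 4 such barcodes, all without these genes. It also held 7 Ptprc-positive barcodes without Pdgfra, with a median of 14519 UMIs, of which none had Mme and 14.3% each had Hsd11b1 and Smoc2. In WT 10 Ptprc-positive barcodes, with a median of 4373.5 UMIs, had Mme in none, Smoc2 in 10% and Hsd11b1 in 20% (exact interval 2.52 to 55.6%). The 6 Hsd11b1 UMIs of these barcodes came to 72.7 CPM, close to the 89.1 CPM of other WT barcodes, and the interval of the share spans the 42.4% of all WT barcodes that passed the filter.

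A KO member had a median of 11520 UMIs and 3467 genes, and a WT member 9179 UMIs and 2942 genes. The other barcodes had a median of 12860 UMIs in KO and 9176 in WT. The members' summed counts were 2035612 UMIs in KO and 2355303 in WT, so that a count of 0 allows up to 1.47 CPM in KO and 1.27 CPM in WT (3 counts). Of barcode sequences, 13 occurred in both deposited matrices and 2 among those that passed, and none of these was a member. Dysf, the targeted gene, had 0 UMIs in KO members and 2 UMIs (0.849 CPM) in WT members, while other KO barcodes had 0.817 CPM. At this depth the gene gives no check of the labels.

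Beyond the rule, Cxcl14, Crispld2, Adamtsl2, Gfra1, Lifr and Dlk1 were among the genes that stood highest over the other FAPs in the members of both libraries, and the members had fewer transcripts of the Dpp4- and Pi16-expressing state. Of 5599 genes with a mean of at least 20 CPM in each library, 75 (1.34%) were higher in members by 1.5-fold or more in both libraries, and 83 (1.48%) were lower by as much. With each gene's highest member barcode left out, 57 of the 75 and 79 of the 83 still passed. Both sets depended on the excluded genes. With barcodes holding Dpp4, Gdf10 or Cxcl9 removed from the other barcodes too, 47 of the 75 and 37 of the 83 still passed. With none of these genes required to be absent, 48 of the 75 and 44 of the 83 did. The members were otherwise close to the rest: 96.1% of genes in KO and 93.4% in WT lay within 1.5-fold. At 2-fold, 19 genes were higher and 42 lower in KO members, and 63 higher and 64 lower in WT members. These shares are the background for the counts over lists that follow.

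Cxcl14 was the most abundant of the genes that led. It stood at 4538 CPM in KO members against 1960 CPM in other KO barcodes, and at 4095 CPM in WT members against 886 CPM in other WT barcodes, log2 ratios of 1.21 (95% interval 1.18 to 1.24) and 2.21 (2.17 to 2.25). Nearly every member had the transcript: it was at 0 in 5.45% of KO members and 24.5% of other KO barcodes, and in 7.05% of WT members and 53.9% of other WT barcodes. Thinning to 5000 UMIs kept 150 KO and 214 WT members, and 1113 KO and 1020 WT other barcodes. At that depth Cxcl14 was detected in 90.7% of KO members and 70.3% of other KO barcodes, and in 89.3% of WT members and 40.3% of other WT barcodes. The level in members was near the same in both libraries, and the lower ratio in KO went with a higher level in the other KO barcodes. Among these, the Dpp4- and Pi16-positive barcodes had 1167 CPM in KO and 412 CPM in WT, and the Gdf10-positive barcodes 2515 CPM in KO and 1161 CPM in WT.

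The next genes also encode secreted products, but they were named for their ratios, and the lists of chemokines, growth factors and peptide hormones had medians below 0 in both libraries. Crispld2, which encodes a secreted glycoprotein of the extracellular matrix, stood at 541 CPM in KO members against 238 CPM in other KO barcodes, and at 705 against 228 CPM in WT. Its log2 ratio was smaller in KO, at 1.18 (1.09 to 1.28), than in WT, at 1.63 (1.54 to 1.71). Adamtsl2, a matrix protein that binds fibrillin and latent TGF-β complexes, stood at 62.4 against 18.0 CPM in KO, a log2 ratio of 1.79 (1.48 to 2.09), and at 100 against 30.1 CPM in WT, a log2 ratio of 1.74 (1.49 to 1.98). The factor was thus similar in both libraries for Adamtsl2 and not for Crispld2.

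Nmb, the gene of the peptide neuromedin B, stood at 84.0 CPM in KO members against 33.9 CPM in other KO barcodes and at 232 CPM in WT members against 99.0 CPM in other WT barcodes. The log2 ratios, 1.31 and 1.23, were alike, although the level itself was lower in KO in both sets. It was a sparse transcript, not detected in 60.6% of KO members and 37.3% of WT members. Its exons overlap Sec11a on the same strand, so some reads could belong to either gene. Trf, which encodes the iron carrier transferrin, stood at 70.7 against 24.0 CPM in KO and 162 against 45.3 CPM in WT, and was detected after thinning in 12% of KO members and 23.4% of WT members.

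Several of the leading genes encode receptors or other membrane signals. Gfra1, the co-receptor of the neurotrophic factor GDNF, stood at 137 against 50.8 CPM in KO and 114 against 34.8 CPM in WT. P2ry1, a receptor of extracellular ADP, stood at 50.1 against 16 CPM in KO and 86.2 against 25.3 CPM in WT. Lifr stood at 252 against 109 CPM in KO and 245 against 96.1 CPM in WT. Sema5a, a membrane semaphorin, had 126 CPM in the members of both libraries, against 54.9 CPM in other KO and 51.6 CPM in other WT barcodes. After thinning, Lifr was detected in 60.7% of KO members and 32.2% of other KO barcodes, and in 58.9% of WT members and 28.5% of other WT barcodes. P2ry1 was detected in 24.7% of KO members and 7.9% of other KO barcodes, and in 35.5% of WT members and 12% of other WT barcodes.

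The highest ratio of the 12 leading genes belonged to a gene of few barcodes. Dlk1, a transmembrane and secreted regulator that restrains adipocyte differentiation, stood at 87.9 CPM in KO members against 22.8 CPM in other KO barcodes and at 119 CPM in WT members against 10.3 CPM in other WT barcodes. Yet 90.3% of KO members and 87.6% of WT members had none. A single barcode gave 25.7% of the KO members' Dlk1 UMIs and 17.1% of the WT members'. Without it the log2 ratio was 1.52 in KO and 3.27 in WT, against 1.95 and 3.54 with it. Capn6, a calpain-family gene on the X chromosome, stood at 30.0 against 12.6 CPM in KO and 52.6 against 18.8 CPM in WT.

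**Figure D2:**
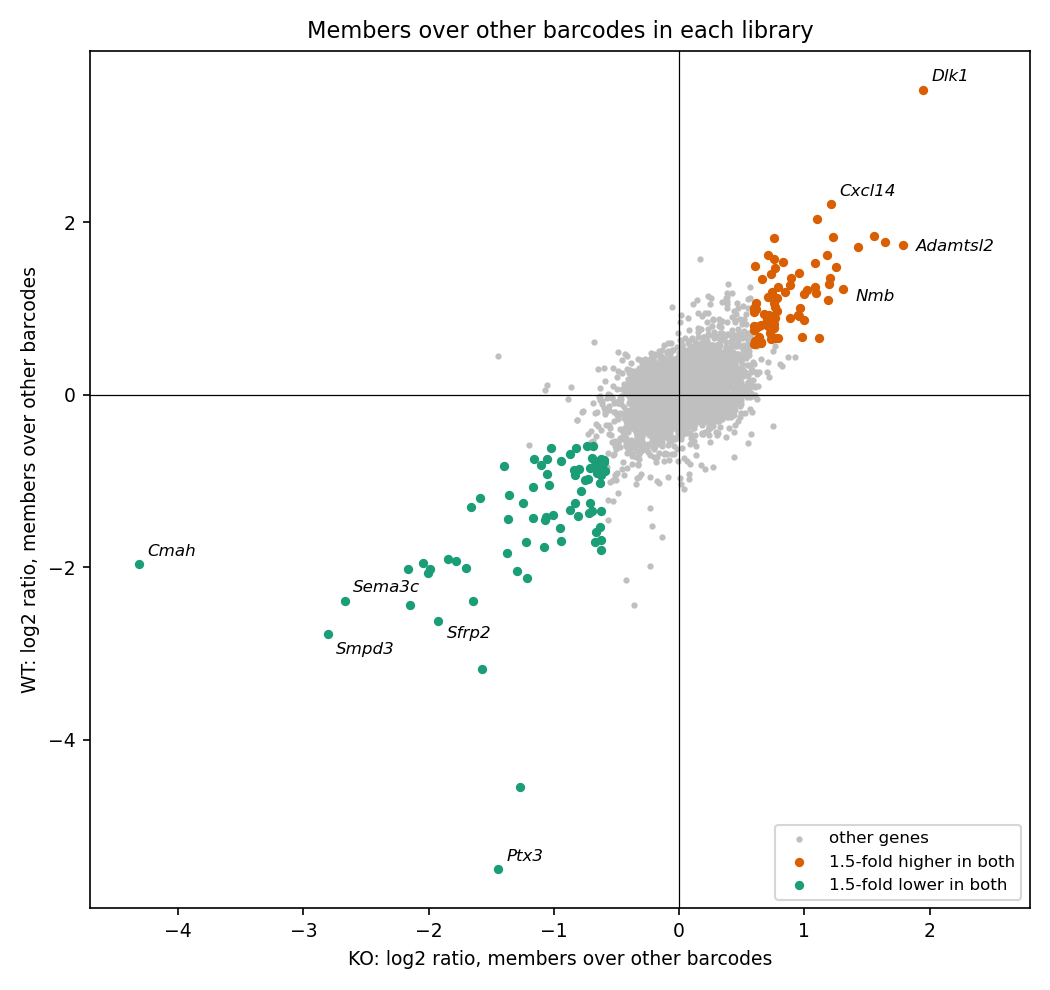
Log2 ratio of members over other barcodes in KO (x axis) and WT (y axis) for the 5599 genes with a mean of at least 20 CPM in each library; coloured points are the 75 genes higher and the 83 genes lower by 1.5-fold or more in both. Most genes lie near 0 on both axes, Dlk1 (1.95 and 3.54) stands at the upper right, and Cmah (-4.32 and -1.96) and Ptx3 (-1.45 and -5.49) stand apart at the lower left.

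The genes lower in members were led by those of the Dpp4- and Pi16-expressing state. Sema3c, a secreted semaphorin, stood at 37.3 CPM in KO members against 237 CPM in other KO barcodes and at 53.5 CPM in WT members against 280 CPM in other WT barcodes, log2 ratios of -2.67 (-3.02 to -2.34) and -2.39 (-2.65 to -2.13). Smpd3, a neutral sphingomyelinase, stood at 15.2 against 106 CPM in KO and 24.2 against 165 CPM in WT. Prg4, which encodes the joint lubricant lubricin, stood at 113 against 453 CPM in KO and 81.9 against 342 CPM in WT. Of the 16 measured genes on the list for this state, 10 were at least 1.5-fold lower in members in both libraries and none was higher in both, with medians of -1.12 in KO and -1.41 in WT, against 0.04 and 0.03 over all genes. Fn1, Igfbp5, Efhd1 and Anxa3 were among the 10. Barcodes with Dpp4 had been removed from the members, so that part of this direction is set by the rule: with barcodes holding any of the 3 genes removed from the other barcodes as well, 47 genes were 1.5-fold lower in both libraries, 37 of them among the 83, and the list's median no longer passed 1.5-fold in both.

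A few genes of vascular signals and of complement were also lower. Tmem100, a membrane protein induced by BMP signals, stood at 39.3 against 156 CPM in KO and 58.2 against 236 CPM in WT. Edn1, the gene of the vasoconstrictor endothelin, stood at 15.2 against 63.0 CPM in KO and 14.9 against 57.4 CPM in WT. Npr1, a receptor of natriuretic peptide, stood at 9.83 against 44.0 CPM in KO and 11.0 against 44.6 CPM in WT. Clu and C4b, a secreted chaperone that restrains complement and a complement component, were the 2 complement genes lower in both libraries. Clu stood at 11.3 against 50.2 CPM in KO and 20.8 against 112 CPM in WT, and C4b at 59.9 against 205 CPM in KO and 18.7 against 70.9 CPM in WT. C4b has a near-identical neighbour, so its count is uncertain.

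Sfrp2 and Cmah were lower on few molecules. Sfrp2, a secreted Wnt antagonist, stood at 44.2 CPM in KO members against 168 CPM in other KO barcodes and at 16.6 CPM in WT members against 102 CPM in other WT barcodes, but a single barcode gave 77.8% of the KO members' UMIs and 51.3% of the WT members'. Cmah, an enzyme of sialic acid synthesis, had 5 UMIs in all KO members and 20 in all WT members, 2.46 and 8.49 CPM, against 48.9 CPM in other KO and 33.1 CPM in other WT barcodes. Of the rest of the 12 lowest genes, Mustn1 stood at 11.3 against 40.6 CPM in KO and 25.1 against 93.9 CPM in WT, and 1700019D03Rik at 12.8 against 41.6 CPM in KO and 20.8 against 83.5 CPM in WT.

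By list, the genes given for interstitial FAPs beyond the 3 of the rule were higher more often than lower: 8 of 19 measured were at least 1.5-fold higher in members in both libraries and 1 was lower, with medians of 0.49 in KO and 0.61 in WT. Col15a1, a basement membrane collagen, stood at 729 against 478 CPM in KO and 975 against 346 CPM in WT, and without its highest barcode its log2 ratio in KO, 0.57, was short of 1.5-fold. Bmp4, a bone morphogenetic protein, stood at 170 against 83.6 CPM in KO and 251 against 108 CPM in WT. G0s2, an inhibitor of lipolysis, stood at 197 against 99.1 CPM in KO and 209 against 93.2 CPM in WT. The exception was Ptx3, the gene of a secreted pattern-recognition protein, at 41.3 CPM in KO members against 112 CPM in other KO barcodes and at 1.27 CPM (3 UMIs) in WT members against 57.4 CPM in other WT barcodes.

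Genes that handle lipid formed a smaller group. Of 7 measured adipocyte and lipid genes, 3 were higher in both libraries and none lower: G0s2, Apoe and Lpl. Lpl, which encodes lipoprotein lipase, stood at 1544 against 1022 CPM in KO and 1177 against 780 CPM in WT, and without its highest barcode it was just short of 1.5-fold, at log2 ratios of 0.53 in KO and 0.51 in WT. Apoe stood at 473 against 240 CPM in KO and 584 against 367 CPM in WT. The adipocyte's own markers were absent or nearly so: all 6 were at 0 in KO members, 4 of 6 in WT members, and Adipoq in both. Of the retinoid genes, Rbp4 and Aldh1a1 were higher in both libraries, Aldh1a1 short of 1.5-fold in KO, at 0.54, without its highest barcode. Of 10 genes of BMP signalling, Bmp2 and Bmp4 were higher and Id2 lower in both.

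Basement membrane genes exceeded the other barcodes by less in KO members than in WT members: the list's median over 13 genes was 0.25 in KO and 0.92 in WT. This difference was not tested. Col4a1 stood at 1807 CPM in KO members against 1320 CPM in other KO barcodes and at 1720 CPM in WT members against 897 CPM in other WT barcodes. Nid2, which links laminin to collagen IV, stood at 215 against 151 CPM in KO and 141 against 68.9 CPM in WT. Only Col15a1 passed 1.5-fold in both libraries.

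The genes that work with Hsd11b1 were not used by the rule. H6pd stood at 66.3 CPM in KO members against 48.0 CPM in other KO barcodes and at 70.9 CPM in WT members against 33.8 CPM in other WT barcodes. Nr3c1, the glucocorticoid receptor, stood at 238 against 218 CPM in KO and 242 against 220 CPM in WT. None of the 8 measured genes of glucocorticoid metabolism and reception, Hsd11b1 left out, passed 1.5-fold in both libraries. Nor did any of the 17 measured glucocorticoid-induced genes, with medians of 0.09 in KO and -0.02 in WT. Of 9 other membrane peptidases none passed either: Ace stood at 229 against 280 CPM in KO and 332 against 294 CPM in WT, and Anpep at 101 against 130 CPM in KO and 64.1 against 111 CPM in WT. The lists built around both enzymes thus held no gene past 1.5-fold in both libraries.

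Other lists had few members past 1.5-fold in both libraries. Of the chemokines and cytokines, Cxcl14 and Ccl11 were higher, and Ccl7 and Tslp lower. Ccl11, an eosinophil chemokine, stood at 887 against 564 CPM in KO and 1177 against 673 CPM in WT. Il34, a ligand of the macrophage growth factor receptor, had a WT mean under 20 CPM and was not counted, and stood at 31.4 against 15.8 CPM in KO and 15.3 against 5.80 CPM in WT. Of the peptide hormones and receptors, Nmb was higher, and Npr1 and Edn1 lower. Of 11 growth factors Igfbp5, Fgf2 and Kitl were lower. Of 6 Wnt modulators Sfrp2 and Sfrp4 were lower, of 10 activated matrix genes Aspn and Comp, of 14 fibrillar collagens Col14a1, and of 10 interferon genes Ifi27l2a. Of 25 proteoglycans and matricellular genes Podn was higher, and Aspn, Fn1, Fbln1 and Efemp1 lower, and of 17 matrix proteases and inhibitors Adamtsl2 was higher. Ccl11 was higher and Fmo2 lower among 7 genes of the Gdf10 state. No gene of the FAP identity, SMOC and SPARC, class I MHC, immediate early, heat shock, TGF-β or adipogenic regulator lists passed in both libraries.

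Clustering of all barcodes that passed spread the members over several clusters and placed the KO and WT members differently. A cluster numbered 6, led by Nmb, P2ry1, Bmp2, Pgf and Gfra1, held 22.4% of KO members and 53.9% of WT members. Cluster 0, led by the cell cycle genes Top2a and Mki67, with Cpxm1 and Col3a1 further down its leading genes, held 40.6% of KO members and 5.81% of WT members. It held 33.1% of all KO barcodes and 2.41% of all WT barcodes, so the whole library shared the difference. Leading genes were ranked on UMIs summed over a cluster's barcodes, which can come from few of them. How many members had Top2a or Mki67 was not counted. Cluster 2, led by Tnc, Cxcl10 and Ccl2, held 16.4% of KO members and 3.73% of WT members. Cluster 7, led by immediate early genes, held 0.61% of KO members and 10.8% of WT members. Cluster 10, led by 6030408B16Rik, Saa1, Dlk1, Shisa3 and Trf, was small, with 5.45% of KO members and 7.88% of WT members. Yet members made up 64.3% of its KO barcodes and 50% of its WT barcodes. In clusters 0, 1 and 6, Dlk1 stood at 13.5, 188 and 0 CPM in KO members and at 0, 136 and 23.3 CPM in WT members. Trf stood there at 22.45, 183 and 16.1 CPM in KO members and at 0, 16.5 and 75.65 CPM in WT members.

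Members did not form a cluster of their own. They made up 37.0% of the KO and 39.8% of the WT barcodes of cluster 6, and 14.1% of the KO and 37.8% of the WT barcodes of cluster 0. Of the nearest neighbours of a KO member within its library 28.7% were members, against 9.66% for other KO barcodes. For a WT member the share was 44.0%, against 11.3% for other WT barcodes. The clusters and neighbours used variable genes with those of the rule and Pdgfra left out. The members were still selected on their own counts, so these values are a description.

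**Figure D3:**
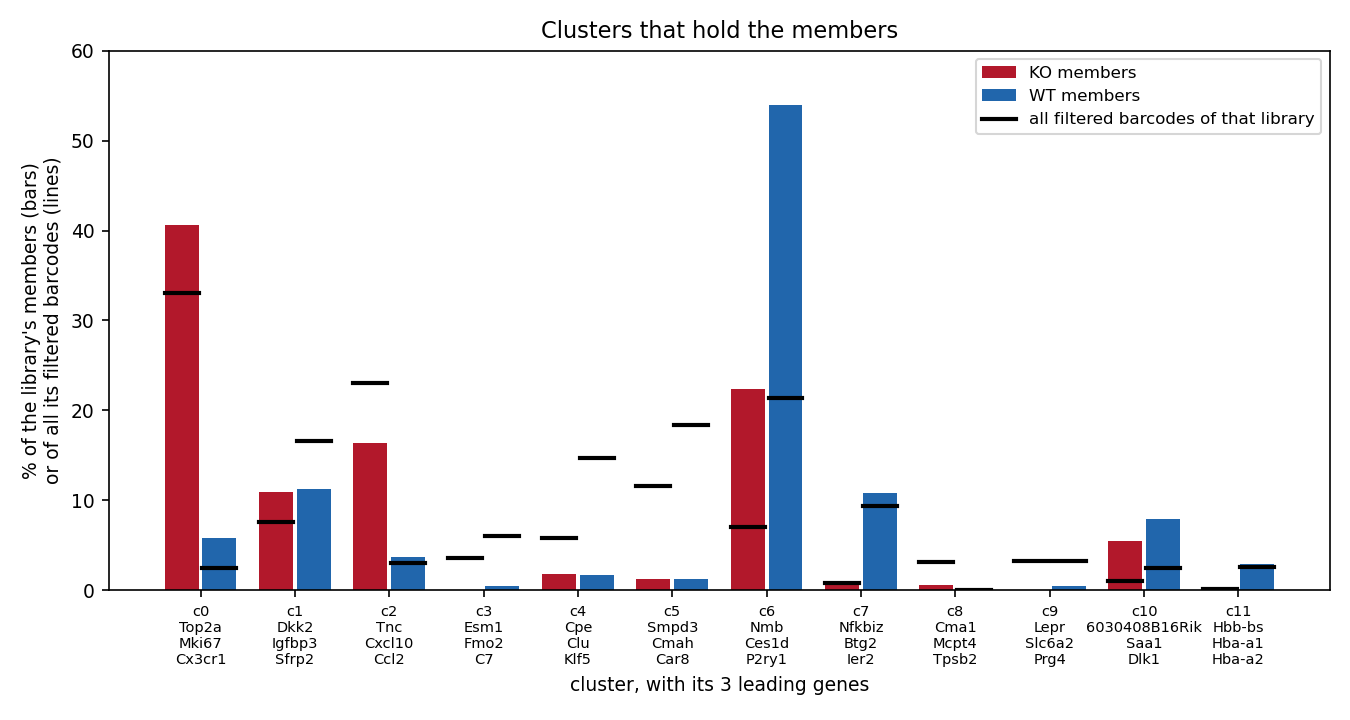
Percent of the members of each library that fell in each cluster, KO bars beside WT bars, with a black line for the percent of all filtered barcodes of that library in the cluster and its 3 leading genes below. Cluster 0 held 40.6% of KO members and 5.81% of WT members, and cluster 6 held 22.4% of KO members and 53.9% of WT members.

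Tendon, nerve and fascia had been dissected away before digestion. Markers of other cell types were low in members apart from genes that FAPs also transcribe. T and NK cell markers (7 of 7) and B cell markers (4 of 4) were at 0 in the members of both libraries. The 10 macrophage markers summed to 12.3 CPM in KO members and 9.77 CPM in WT members, with Ptprc, Csf1r, Adgre1 and C1qa at 0 in both, against 88.0 CPM in other KO and 12.7 CPM in other WT barcodes. The endothelial list summed to 49.1 CPM in KO members and 136 CPM in WT members, of which Tek gave 38.3 and 72.2 CPM, with 6 of 10 markers at 0 in KO and 1 of 10 in WT. The tenocyte list summed to 1221 CPM in KO members and 1032 CPM in WT members, of which Thbs4 gave 1191 and 1019 CPM, with Scx at 0 in KO and at 0.849 CPM in WT. The satellite cell list summed to 118 CPM in KO members and 57.3 CPM in WT members, mostly Vcam1, with Pax7 at 0 in both. Lymphatic, mural, muscle fibre, Schwann and perineurial lists summed to between 0.849 and 99.3 CPM in the members of either library. The perineurial list, which holds Shisa3, summed to 87.0 CPM in KO members against 52.2 CPM in other KO barcodes. In WT its sum was 99.3 against 57.4 CPM. The mural sum was also higher in the members of both libraries, and the lymphatic and Schwann sums were lower. Single genes of these lists differed by 1.5-fold between members and other barcodes in both libraries: Cspg4 of the mural list and Sox9 of the perineurial list were higher, and Ncam1 of the Schwann list lower. Their part in the other results was not tested.

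Between the libraries, the KO members carried more transcripts of interferon-induced genes, complement, class I MHC and matrix proteins, and fewer of glucocorticoid-induced and immediate early genes. Of 5934 genes with a mean of at least 20 CPM, 121 (2.04%) were higher in KO members by 2-fold or more and 65 (1.1%) were lower by as much, and 89.0% lay within 1.5-fold. The other FAPs differed in the same way. All 121 higher genes were above 0 in the other barcodes too and 75 of them passed 2-fold there, while of the 65 lower genes 58 were below 0 and 35 passed 2-fold. The medians over the 121 were 1.26 in members and 1.16 in other barcodes, and over the 65 they were -1.27 and -1.05. Both comparisons set a KO library against the same WT library and so share its preparation.

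Since cluster 0 held the largest share of KO members and cluster 6 that of WT members, many of the following values stand beside the same ratio inside cluster 6, with 37 KO and 130 WT members. There, 9 of the 15 genes named as highest and 9 of the 15 named as lowest passed 2-fold in the same direction, and 5 and 3 had the opposite direction. These counts include genes with 0 UMIs in the KO members of cluster 6. Hba-a2 and Hbb-bt, with 1 WT UMI each, count among the 9 lowest. Ptx3, with 1 WT UMI, and Ccl2, with 22, count among the 5 opposite. Cluster 0, with 67 KO and 14 WT members, is given beside some of them.

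Glucocorticoid-induced genes were lower in KO members as a group. Of 18 measured, 12 were at least 1.5-fold lower and 3 at least 1.5-fold higher (Mt2, Angptl4 and Mgp), with a median of -0.92, while over all genes 4.04% were lower and 6.91% higher at 1.5-fold. Tsc22d3, which encodes the anti-inflammatory leucine zipper protein GILZ, stood at 337 CPM in KO members and 1106 CPM in WT members, a log2 ratio of -1.71 (-1.84 to -1.59). It was detected in 81.8% of KO members and 97.1% of WT members. Zbtb16, a zinc finger transcription factor, stood at 85.5 CPM in KO members and 343 CPM in WT members, a ratio of -2.0 (-2.25 to -1.76), and was detected in 52.1% of KO members and 91.3% of WT members.

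Further members of the list had the same direction. Ddit4, an inhibitor of mTOR signalling, stood at 49.1 CPM in KO members and 174 CPM in WT members. Glul, glutamine synthetase, stood at 73.2 CPM in KO members and 220 CPM in WT members. Klf15, a transcription factor of metabolic genes, stood at 16.7 CPM in KO members and 42.5 CPM in WT members. Inside cluster 6 the ratios were -1.46 for Tsc22d3, -1.16 for Zbtb16, -1.06 for Ddit4, -0.90 for Glul and -1.29 for Klf15, all in the same direction. Sgk1, whose promoter is printed above, stood at 155 CPM in KO members and 206 CPM in WT members, a ratio of -0.41 (-0.62 to -0.20).

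The glucocorticoid receptor was close between the libraries. Nr3c1 stood at 238 CPM in KO members and 242 CPM in WT members, a ratio of -0.02 (-0.20 to 0.15), and none of the 8 genes of glucocorticoid metabolism and reception passed 1.5-fold. Hsd11b1, left out of those 8 because the rule fixed it at 1 UMI or more, had a ratio of -0.43 (-0.57 to -0.29) in members, and stood at 102 CPM over all KO barcodes that passed the filter and 147 CPM over all such WT barcodes. Among other barcodes the glucocorticoid-induced list had a median of -1.14, so the lower level was not confined to the members. The glucocorticoid-response letters stood in 2 of 14 genes of the list with a promoter in the table (14.3%), against 0.537% of all genes. They stood in 1 of 44 genes found among those 2-fold lower in KO members (2.27%). Among those 2-fold higher it was 2 of 80 (2.5%), so the letters did not go with the direction.

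Immediate early genes, which respond to growth factors, stress and tissue digestion, were lower as well. Of 19 measured, 14 were at least 1.5-fold lower in KO members and none higher, with a median of -0.70 in members and -0.71 in other barcodes. Jund stood at 606 CPM in KO members and 1496 CPM in WT members, Ier2 at 258 and 631 CPM, and Btg2 at 178 and 430 CPM. The cluster led by these genes held 9.33% of the WT barcodes that passed the filter and 0.836% of the KO barcodes. Inside cluster 6 the ratios shrank to -0.68 for Jund, -0.57 for Ier2 and -0.13 (-0.45 to 0.18) for Btg2. Inside cluster 0 Jund was at -0.47 (-0.80 to -0.12), but Ier2 was higher in KO members, at 1.38 (0.20 to 2.86) on 6 WT UMIs, and Btg2 was at 0.18 (-0.79 to 1.30). Of 12 heat shock genes 2 were lower: Hspb1, a small chaperone, stood at 198 CPM in KO members and 628 CPM in WT members, and Hspa1b at 1423 CPM in KO members and 2883 CPM in WT members, a gene whose reads are shared with its near-identical copy Hspa1a. Both were lower in KO members inside cluster 6, at -1.23 and -0.91, while inside cluster 0 Hspb1 was at 0.23 (-0.50 to 1.06) and Hspa1b was higher, at 0.51 (0.20 to 0.82). The labels give no handling times by sample, and their part in these values was not tested.

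Several of the genes that were lowest in KO members lie outside these lists. Inmt, a methyltransferase of indole amines, stood at 33.4 CPM in KO members and 313 CPM in WT members, a ratio of -3.23 (-3.61 to -2.87), and was detected in 9.70% of KO members and 70.1% of WT members. Cdkn1a, a cell cycle inhibitor, stood at 119 CPM in KO members and 363 CPM in WT members, but the ratio inside cluster 6 was -0.34, against -1.61 over all members, and inside cluster 0 it was 1.48 (-0.15 to 3.80) on 3 WT UMIs. Pgf, placental growth factor, stood at 13.3 CPM in KO members and 57.7 CPM in WT members and was level inside cluster 6, at 0.015. Galnt15, a mucin-type glycosyltransferase, stood at 12.8 CPM in KO members and 52.6 CPM in WT members. Rpl10 stood at 601 CPM in KO members and 1815 CPM in WT members and Gm9780 at 13.3 and 79.8 CPM; Rpl10 has many pseudogene copies, so its value is uncertain.

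Interferon-induced genes were higher in KO members: 12 of 15 measured passed 1.5-fold and none was lower, with a median of 1.12. Isg15 stood at 82.0 CPM in KO members and 18.3 CPM in WT members, a ratio of 2.17 (1.68 to 2.69). Iigp1, an interferon-induced GTPase of a family with close copies, stood at 115 CPM in KO members and 11.0 CPM in WT members, a ratio of 3.38 (2.79 to 4.02). Ifit3, another interferon-induced gene with close copies, stood at 66.3 CPM in KO members and 15.3 CPM in WT members. Inside cluster 6 Iigp1 was at 2.81 (1.61 to 4.08). Isg15 was at -0.24 (-2.0 to 1.18) there, on 5 KO UMIs, and Ifit3 at -2.21 (-7.59 to 0.45), on 1 KO UMI, so neither differed from 0 beyond counting error. Inside clusters 0 and 1 Isg15 was at 1.44 and 1.04 and Ifit3 at 0.05 and 2.04, with all intervals but the last spanning 0. The interferon-response letters stood in the promoters of 7 of 11 genes of the list found in the table (63.6%) and of 13 of the 80 genes found among those 2-fold higher (16.3%), against 3.99% of all genes. KO barcodes with Cxcl9, itself induced by interferon, had been removed from the members, and the interferon list's median in the other barcodes was 1.20.

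Class I MHC genes were higher as well: 6 of 12 passed 1.5-fold higher in KO members, none passed it lower, and the median was 0.59. B2m, which encodes β2-microglobulin, stood at 879 CPM in KO members and 400 CPM in WT members, and H2-D1 at 1252 and 622 CPM. H2-Q4 stood at 130 CPM in KO members and 63.3 CPM in WT members, and Psmb9, a subunit of the immunoproteasome, at 31.4 and 14.9 CPM. The H2 genes are near-identical to each other and the mice differed in strain, so their values are uncertain.

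Of 9 complement genes 6 passed 1.5-fold higher in KO members, none passed it lower, and the median was 1.01, against 0.52 in other barcodes. C3, the central component, stood at 1632 CPM in KO members and 811 CPM in WT members. Cfb, factor B of the alternative pathway, stood at 329 CPM in KO members and 74.3 CPM in WT members, a ratio of 2.15 (1.91 to 2.40), and C2, its counterpart of the classical pathway, at 70.2 and 12.3 CPM. Both overlap the readthrough gene Gm20547, so reads could be split. Inside cluster 6 Cfb was at 0.90 and C2 at -0.04.

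The acute-phase and inflammatory genes held the largest ratios, some from few barcodes. Serpina3n, a secreted protease inhibitor, stood at 153 CPM in KO members and 6.37 CPM in WT members, a ratio of 4.58 (3.84 to 5.44), and was detected in 47.3% of KO members and 5.81% of WT members. It was 2.96 inside cluster 6. Ptx3 stood at 41.3 CPM in KO members (84 UMIs) and 1.27 CPM in WT members (3 UMIs), with detection in 7.27% of KO members and 1.24% of WT members. Ccl2, a monocyte chemokine, stood at 207 CPM in KO members and 10.2 CPM in WT members, but 1 barcode gave 58.8% of the KO UMIs and 1 barcode 62.5% of the WT UMIs. In cluster 6 the KO members had 0 UMIs of Ccl2 and the WT members 22. Plac8 stood at 110 CPM in KO members and 9.77 CPM in WT members, and C1qtnf3 at 44.2 and 4.25 CPM.

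Of 11 chemokines and cytokines 6 were at least 1.5-fold higher in KO members and 1, Cxcl1, lower, with a median of 0.62. Ccl7 stood at 55.5 CPM in KO members and 17.4 CPM in WT members, and Ccl8 at 76.6 and 22.5 CPM. Cxcl14, among the genes highest in members over other barcodes, behaved otherwise. Its ratio was 0.15 (0.11 to 0.19) between KO and WT members and 1.14 between KO and WT other barcodes, with -0.07, 0.09 and 0.08 inside clusters 0, 1 and 6.

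Matrix genes were higher in KO members. Of 10 activated matrix genes 7 passed 1.5-fold and none was lower, with a median of 1.20. Cpxm1, a secreted carboxypeptidase-like protein, stood at 541 CPM in KO members and 128 CPM in WT members, a ratio of 2.08 (1.89 to 2.27) that was 0.66 inside cluster 6. Timp1, an inhibitor of metalloproteinases, stood at 313 CPM in KO members and 43.7 CPM in WT members, and was detected in 52.7% of KO members and 15.8% of WT members. Mmp3, the metalloproteinase stromelysin, stood at 332 CPM in KO members and 44.2 CPM in WT members, a ratio of 2.91 (2.61 to 3.22). Inside cluster 6 Timp1 was at 1.54, and Mmp3 had the opposite direction, at -2.31 (-4.22 to -0.89).

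Of 14 fibrillar and associated collagens 7 passed 1.5-fold higher, none passed it lower, and the median was 0.57. Col3a1 stood at 10021 CPM in KO members and 4616 CPM in WT members, a ratio of 1.12 (1.08 to 1.15), and Col1a2 at 5166 and 2904 CPM. These ratios were 0.27 and 0.28 inside cluster 6. The basement membrane genes were close between the libraries, with a median of 0.06 over 13 genes in members against 0.47 in other barcodes, and Nid2, at 0.61, was the only one past 1.5-fold. Of 25 proteoglycan and matricellular genes 5 were higher: Fn1 (1.13), Thbs1 (0.70), Aspn (0.69), Mfap4 (0.67) and Podn. Fn1 stood at 964 CPM in KO members and 442 CPM in WT members, and was also higher inside clusters 0, 1 and 6, at 0.40, 1.14 and 0.80. The next 3 did not keep their direction in every cluster. Thbs1 was at -1.40 (-2.20 to -0.54) inside cluster 0 and -0.22 (-0.91 to 0.42) inside cluster 6, and without its highest barcode it was at 0.37 over all members, short of 1.5-fold. Mfap4 was at -0.91 (-1.64 to -0.24) and Aspn at -0.63 (-1.56 to 0.20) inside cluster 6. Of 18 matrix proteases and inhibitors 7 were higher and 1 lower, with Adamtsl2 at -0.68 (-1.01 to -0.37).

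Wnt modulators were the list with the highest median, 1.25 over 6 genes, of which 5 passed 1.5-fold: Sfrp1, Sfrp2, Sfrp4, Dkk2 and Wnt5a. In other barcodes the median was 0.34. Sfrp1, a secreted Wnt antagonist, stood at 371 CPM in KO members and 118 CPM in WT members, a ratio of 1.65 (1.45 to 1.86), and at 1.27 inside cluster 6. Sfrp4 stood at 70.7 CPM in KO members and 19.5 CPM in WT members. Dkk2, another secreted Wnt antagonist, stood at 94.8 CPM in KO members and 44.6 CPM in WT members. Without its highest barcode Sfrp2 was at 0.28, short of 1.5-fold. With 6 genes, the median is a description of few values.

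**Figure D4:**
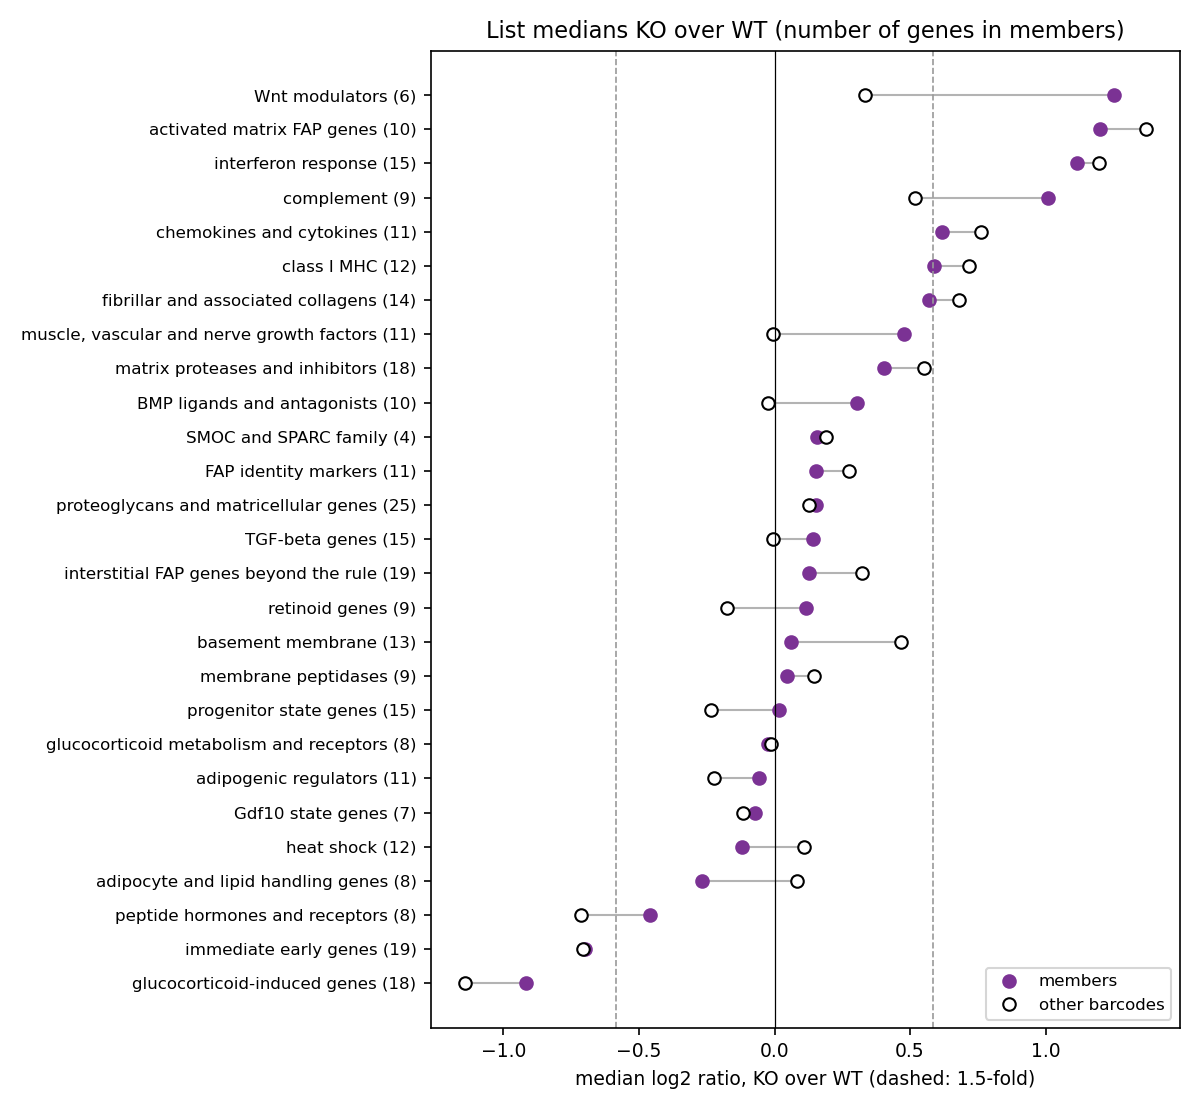
Median log2 ratio of KO over WT for each gene list in members (filled) and in other barcodes (open), in order of the members' value, with dashed lines at 1.5-fold. Wnt modulators (1.25 in members and 0.34 in other barcodes) head the order and glucocorticoid-induced genes (-0.92 and -1.14) end it, and the lists with medians past 1.5-fold in members lie on the same side of 0 in other barcodes.

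Some of the genes that set members apart from other FAPs were lower in KO members. Of the 75 genes higher in members in both libraries, 17 were at least 1.5-fold lower in KO than in WT members and 3 were higher, with a median of -0.19, against 4.04% lower and 6.91% higher of all genes. Nmb stood at 84.0 CPM in KO members and 232 CPM in WT members, a ratio of -1.47 (-1.72 to -1.22), and Bmp2 at 36.8 and 107 CPM, a ratio of -1.54 (-1.93 to -1.16). Bmp4 stood at 170 CPM in KO members and 251 CPM in WT members. Inside cluster 6 Nmb was at -0.39 and Bmp2 at 0.16, while Bmp4 was at -0.92. Of the peptide hormones and receptors Nmb, Penk and Ramp2 were lower: Ramp2, a chain of adrenomedullin receptors, stood at 148 CPM in KO members and 323 CPM in WT members, and Penk, the enkephalin precursor, at 53.5 and 98.1 CPM. Ramp2 overlaps Vps25 on the same strand.

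Smaller lists were split. Of 11 growth factors Igfbp4, Igfbp5, Kitl and Fgf7 were higher and Igfbp6 and Pgf lower in KO members. Without its highest barcode Igfbp5 was at 0.54, short of 1.5-fold, and it was at -0.73 inside cluster 1. Fgf7, a keratinocyte growth factor, stood at 53.1 CPM in KO members and 23.8 CPM in WT members. Of 9 retinoid genes Aldh1a2 (1.06) and Rara were higher, and Cyp26b1 (-1.71), Aldh1a1 and Rbp4 lower. Aldh1a2, an enzyme of retinoic acid synthesis, turned round inside cluster 0, which held the largest share of KO members: there it stood at 101 CPM in KO members and 424 CPM in WT members, a ratio of -2.07 (-2.55 to -1.58). Inside cluster 1 it had 42 UMIs in KO members and 0 in WT members. Of 11 adipogenic regulators Cebpd, Klf15 and Nr1h3 were lower: Cebpd stood at 1065 CPM in KO members and 2144 CPM in WT members, but inside cluster 1 its ratio was 0.26 (0.02 to 0.49). Svep1, a large adhesion protein of the matrix, stood at 504 CPM in KO members and 234 CPM in WT members and was, with Fgf7 and Ptx3, 1 of 3 interstitial genes that were higher, while Nmb was lower. Of the list for the Dpp4- and Pi16-expressing state Fn1, Igfbp5 and Has1 were higher and Anxa3 and Ackr3 lower, with a median of 0.02. Among the rest, Meox1 and Meox2 were higher and Fmo2 lower in the Gdf10 state list, Col1a1, Col1a2 and Col3a1 higher and Gsn lower among identity markers, Sparc higher and Spock2 lower in the SPARC family, Bmper higher and Bmp2 lower among BMP genes, Anpep and Cpxm1 higher among peptidases, Tgfbi lower among TGF-β genes and Vldlr and Fabp4 lower among lipid genes. Of these, Col1a1 (-0.23) and Ackr3 (0.87) had the opposite direction inside cluster 0, and Tgfbi (0.50) inside cluster 1, with intervals clear of 0. Vldlr (0.88 inside cluster 0 and 0.33 inside cluster 6), Anxa3 (0.62 inside cluster 1) and Bmp2 (0.16 inside cluster 6) turned round too, with intervals that spanned 0.

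Of the remaining named genes, H19, an imprinted RNA, stood at 58.5 CPM in KO members and 2.55 CPM in WT members, a ratio of 4.52 (3.36 to 6.00). Inside cluster 6 its ratio was 3.96 (0.62 to 9.58), on only 4 KO UMIs and 1 WT UMI. H19 was detected in 13.9% of KO members and 2.49% of WT members. Aoc3, an amine oxidase of vessel wall and fat cells, stood at 73.7 CPM in KO members and 11.9 CPM in WT members, and Lgmn, a lysosomal protease, at 133 and 23.8 CPM. Emb, an adhesion glycoprotein, stood at 41.8 CPM in KO members and 2.97 CPM in WT members. Bc1, a brain cytoplasmic RNA, stood at 189 CPM in KO members and 34.4 CPM in WT members. Inside cluster 6 Aoc3 was at 2.20, Lgmn at 1.75 and Bc1 at 2.39.

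**Figure D5:**
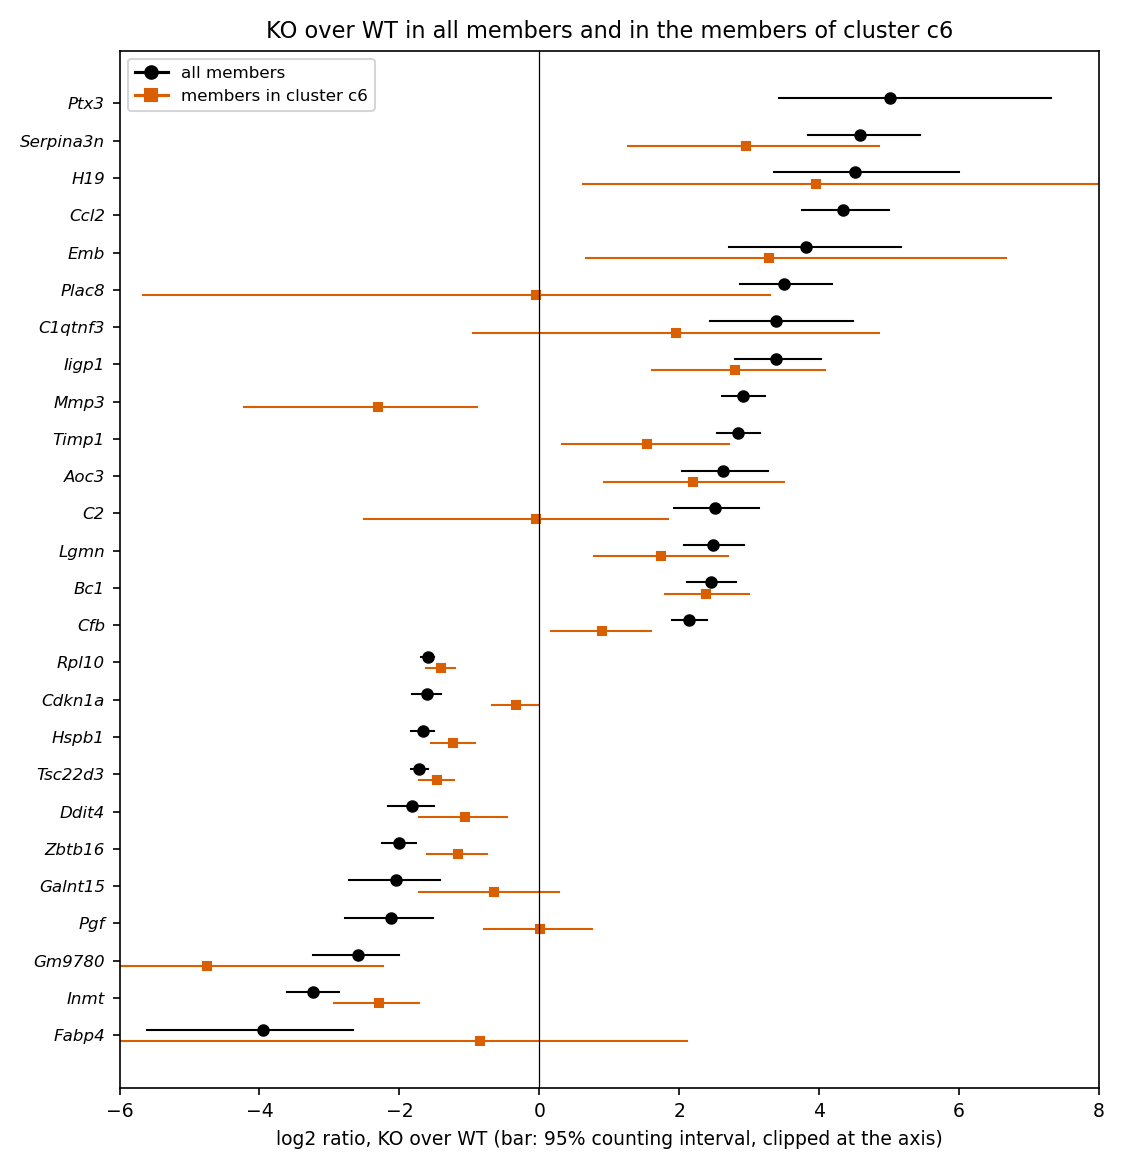
Log2 ratio of KO over WT with its 95% interval for the named genes, over all members and inside cluster 6 (37 KO and 130 WT members); intervals are cut at the edges of the axis, the haemoglobin genes are left out, and Ptx3 and Ccl2 have no cluster 6 point because KO members there had 0 UMIs. Serpina3n (4.58 and 2.96) and Tsc22d3 (-1.71 and -1.46) keep their side of 0, and Mmp3 (2.91 and -2.31) changes it.

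The haemoglobin genes had the lowest ratios of all, and they came from 1 barcode. Hbb-bs stood at 2.95 CPM in KO members and 2636 CPM in WT members, Hba-a1 at 2.95 and 1052 CPM, Hba-a2 at 1.97 and 841 CPM, and Hbb-bt at 0 CPM in KO members, below the floor of 1.47 CPM, and 568 CPM in WT members. A single WT member held 11978 haemoglobin UMIs among its 30887, or 38.8%. The member with the next most had 3. The same barcode gave 66 Fabp4 UMIs, 74.2% of the WT members' total: the ratio of Fabp4, a fatty acid binding protein, was -3.94 with it and -2.31 without it.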

How the data were processed

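Droplet libraries of sorted FAPs were analysed from the authors' 2 deposited matrices, 1 per group of 4 labelled samples, which hold UMI counts per gene and barcode (10x 3′ kit version 3). Per the submitters' processing notes, Cell Ranger 3.0.0, Seurat and build mm10 were used; per the file headers the matrix software was 3.0.2, and further filters or pooling are not given in the sources used here. Both the members and the 41 gene lists (28 of states and functions, 13 of cell types) were chosen with earlier results of these data known.

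UMIs were summed over members and over other barcodes of each library and scaled to CPM. Ratios carry exact conditional binomial intervals. Genes were described at a mean of at least 20 CPM, at 1.5-fold in both libraries for members over other barcodes and 2-fold for KO over WT. Named were the rule's genes, the 12 highest and 12 lowest and the 15 highest and 15 lowest of these comparisons, and up to 4 genes per list. With 1 library per group no model was fitted. Leiden clusters and Scrublet came from scanpy 1.11.5 (numpy 2.4.6, scipy 1.17.1, pandas 2.3.3); Scrublet marked 1 KO and 2 WT barcodes, too few to count as having worked, so doublets were not removed. The summation and intervals were checked on simulated data. Gene overlaps came from the GENCODE annotation of the reference, and promoters from RefSeq.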

Additional observations from a re-analysis of the deposited data

Results flagged for a closer look

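Haemoglobin genes differed in opposite directions between KO and WT in members and in other barcodes, and this difference was not tested. The log2 ratio of KO over WT was -9.80 in members and 1.60 in other barcodes for Hbb-bs, -8.48 and 1.08 for Hba-a1, and -8.74 and 1.37 for Hba-a2. The values in WT members came from 1 barcode with 11978 haemoglobin UMIs, which Scrublet did not call a doublet.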

How the results depend on the processing

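No paired analysis was possible because each group's 4 samples were in 1 matrix whose barcodes carry no sample number, and for the same reason no replicate could be left out. Of the counts and shares, 78 stayed within 1.5 times or the counting interval of the reported value and 22 moved. Of the list medians, 986 stayed, 145 moved and 1 reversed, and of single genes 4722 stayed, 1200 moved and 22 reversed. These totals include dropping the Smoc2 requirement, which kept the same barcodes, and dropping called doublets, which removed no member. Each of these settings could change little or nothing. Each added 8 unchanged counts and shares, 81 unchanged list medians and 496 unchanged single genes. Thinning to 5000 UMIs gave a KO share of 9.75%, 244 genes higher and 168 lower in KO members, 119 genes higher in members in both libraries, and 2 lists past 1.5-fold between members and other barcodes, against 1 as reported. Only 75 of the 121 genes reported higher in KO members, and 40 of the 65 lower, were called again after thinning. Between members and other barcodes 54 of the 75 higher and 52 of the 83 lower were called again. Asking for 2 UMIs of each required gene gave shares of 5.37% in KO and 8.61% in WT, and asking for no absent gene gave 30.7% and 26.9%. With 2 UMIs required, 83 of the 121 genes higher and 51 of the 65 lower in KO members were called again. A minimum of 5 CPM gave 330 genes higher and 219 lower in KO members, and 172 higher and 190 lower in members in both libraries. A minimum of 50 CPM gave 55, 35, 35 and 41. With Dpp4, Gdf10 and Cxcl9 absent from the other barcodes too, 65 genes were higher and 47 lower in members, and 0 lists passed. Of these genes 47 and 37 were among those reported. Without each gene's highest barcode, a setting chosen once the data had been seen, 109 genes were higher and 63 lower in KO members, of which 107 and 56 were among those reported, and 57 were higher and 106 lower in members in both libraries, of which 57 and 79 were among those reported.

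Among the members of cluster 6, a setting chosen once the data had been seen, 336 genes were higher and 153 lower in KO members, of which 31 and 17 were among those reported, and 5 lists passed 1.5-fold against 8. These counts include more genes at 0 in the 37 KO members. There the median of chemokines and cytokines reversed to -0.011, as did Ifit3 (-2.21), Mmp3 (-2.31), Ccl7 (-0.89), Isg15 (-0.24), C4b (-0.21), Col14a1 (-0.093), Plac8 (-0.043) and C2 (-0.043). Mfap4 (-0.91), Aspn (-0.63), Thbs1 (-0.22) and Vldlr (0.33), between 1.5-fold and 2-fold as reported, changed sign there too. Hbb-bs (0.96), Hba-a1 (0.64), Bmp2 (0.16), Cyp26b1 (0.019) and Pgf (0.015) reversed to higher. Ifit3 reversed to -0.39 on thinning, and Hba-a2 to 0.61 without the haemoglobin-rich barcode and 0.21 without each gene's highest barcode, both likewise chosen with the data seen. Between members and other barcodes, Ccl7 reversed to 0.037 in WT with 2 UMIs required. With no absent gene required, Ptx3 reversed to 0.17 and Tslp to 1.04 in KO. With the same genes absent from the other barcodes, Anxa3 reversed to 0.16 and Cmah to 0.088 in WT, and Efemp1 to 0.28 in KO. The cause was not tested. A gene with 0 UMIs on one side has no ratio and was left out of these counts, among them Ptx3 and Ccl2 inside cluster 6 and Hbb-bt throughout. Counts of 0 limit values below 1.47 CPM in KO members and 1.27 CPM in WT members.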
